A study of Mus musculus with 17 samples.

Results

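The genes described are 10 members of the circadian clock: Per1, Per2, Per3, Cry1, Ciart, Nr1d1, Nr1d2, Dbp, Tef and Bmal1, the last listed in the count table under its older symbol Arntl. They were chosen by name, as rows of the deposited count table that carry these symbols, and all 10 were present among 15062 genes. They were measured in 17 libraries of mouse C2C12 myoblasts that carry an empty vector, SRF or an SRF fusion. Per1 ranged 8.28-fold across the libraries, whereas the means of the 6 lines differed by 1.59-fold. In the 15 libraries of the 5 lines with 3 libraries, replicate number accounted for a larger share of the variance than line in 8 of the 10 genes, where the median over all genes was 30.4% for number and 28.5% for line. The share of all genes in which number held more than line was not computed, so that count is a description. SRF-PDGFRB, the line with 2 libraries, had the numbers the other way round for Per1. None of these 10 genes passed the test between lines when replicate number was left out of the model, and none did with replicate number as a term over all 17 libraries. Within the 12 libraries of 4 lines whose numbers match, Per2 alone of the 10 passed, higher in SRF-RELA than in pMSCV. That was 1 of 10 members where 6.48% of all genes were called, a count near that share. Those 4 lines were picked from these same data, because their same-numbered libraries deviated together, and the labels give no such pairing.

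The circadian clock is a transcriptional feedback loop that runs in almost every mammalian cell, skeletal muscle cells included. BMAL1 pairs with CLOCK (or NPAS2) on E-box sequences and activates the Per and Cry genes, Ciart, Nr1d1, Nr1d2, Dbp and Tef, and the PER and CRY proteins then block that activity. A further loop sets Bmal1 itself, which the REV-ERB receptors encoded by Nr1d1 and Nr1d2 repress and the ROR receptors activate. DBP and TEF carry the rhythm on to D-box sequences, while NFIL3 opposes them there. In cultured cells the individual clocks drift apart unless a shared stimulus such as fresh serum or a glucocorticoid sets them, and Per1 and Per2 are known to respond to such stimuli within the hour.

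The promoter windows of Per1, Per3 and Ciart are shown as examples, picked because they hold the E-box or D-box that links the loops. Windows with no match are not shown, among them a second window of Per1 and that of Dbp, which ranged 9.30-fold across the libraries. The windows are RefSeq sequences of build GRCm38.p6, written 5′ to 3′ on the gene's own strand, and end at the last base before the gene's RefSeq start or its first annotated exon base. Capitals mark the E-box CACGTG in Per1 and Ciart and the D-box TTATGTAA in Per3, and positions count back from the RefSeq start, which lies 1 base past the printed end in Per1 and 23 bases past it in Ciart.
Per1: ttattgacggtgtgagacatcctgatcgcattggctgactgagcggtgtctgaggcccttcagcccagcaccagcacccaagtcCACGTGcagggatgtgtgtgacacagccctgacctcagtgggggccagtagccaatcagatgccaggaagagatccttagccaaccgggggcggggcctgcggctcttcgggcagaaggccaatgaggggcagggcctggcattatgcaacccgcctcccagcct
Per3: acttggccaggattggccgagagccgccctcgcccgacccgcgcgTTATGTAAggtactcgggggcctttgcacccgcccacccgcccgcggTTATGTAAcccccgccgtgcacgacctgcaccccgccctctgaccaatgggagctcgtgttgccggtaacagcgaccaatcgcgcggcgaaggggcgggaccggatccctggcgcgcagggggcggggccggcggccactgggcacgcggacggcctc
Ciart: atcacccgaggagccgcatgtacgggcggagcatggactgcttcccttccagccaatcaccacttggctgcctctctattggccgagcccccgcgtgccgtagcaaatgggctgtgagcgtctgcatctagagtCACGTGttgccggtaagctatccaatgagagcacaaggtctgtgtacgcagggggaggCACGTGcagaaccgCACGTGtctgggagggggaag
The Per1 window (chr11:69098699-69098947, plus strand) holds 1 E-box, from -166 to -161, and lies inside the GENCODE span of the gene, 3′ of its outermost start. The Per3 window (chr4:151044666-151044915, minus strand) holds 2 D-boxes, from -205 to -198 and from -158 to -151. The Ciart window (chr3:95882252-95882478, minus strand) holds 3 E-boxes, which begin at -116, -58 and -44.

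RefSeq windows were found for 9 of the 10 genes, 12 windows in all, and Per2 had none. The 250 bases before the start were searched on both strands. An E-box CACGTG occurred in 4 of the 9 genes (Per1, Cry1, Tef and Ciart) and in 6.02% of all 32851 promoter windows. In these counts a gene counted if any of its windows matched, whereas the percentages are of single windows. The D-box, searched as TTATGTAA or TTACGTAA, occurred in 1 gene, Per3, and in 0.931% of all windows. A related E-box, CACGTT, lay in Cry1 and Nr1d1 and in 3.85% of all windows. The start of the Nr1d1 window did not match the beginning of an annotated transcript of the gene. The cAMP response element TGACGTCA, the ROR element and the CArG box bound by SRF were not found in these windows, and occurred in 1.55%, 0.332% and 1.47% of all windows. A match describes the letters in a window and does not show that a factor binds there.

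C2C12 is an established mouse line of myoblasts, the precursors of skeletal muscle fibres. The lines carried pMSCV (a retroviral vector, here empty), SRF (serum response factor, a transcription factor that switches on immediate-early and cytoskeletal genes after serum), or SRF-FOXO1, SRF-ICA1L, SRF-PDGFRB or SRF-RELA, each a fusion gene made of SRF and the partner in its name. SRF-PDGFRB had 2 libraries and each other line 3, all from cells in medium with 10% fetal bovine serum. The question was how the lines differ in expression. The labels give the replicate numbers but not what a number stands for, nor the hour of harvest, whether a line is 1 clone, or whether libraries of a line came from separate cultures, so the p-values measure only the spread between these libraries, which may be technical.

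Library totals ran from 20901442 to 23543734 counts. Srf stood at 678 to 1670 CPM (counts scaled to a common library size) in the SRF line and at 66.6 to 93.8 CPM in pMSCV, and at 70.5 to 279 CPM in the fusion lines, so its count sets the SRF line apart but does not check the labels of the fusions. All 7 myoblast markers on the list examined were in the table, with sums of 273 to 2020 CPM, and both ends of that range were SRF-PDGFRB libraries. Of the 12 markers of leukocytes, endothelium, epithelium and adipocytes, only Cd68 (1.91 to 5.33 CPM) and Cdh5 (0 to 2.72 CPM) were in the table. In 4 lines (pMSCV, SRF, SRF-RELA and SRF-ICA1L) same-numbered libraries deviated from their group means together (r from 0.392 to 0.789 across genes in 6 pairs of lines). SRF-FOXO1 did so with SRF alone, and SRF-PDGFRB replicate numbers went against those of SRF-FOXO1 (r -0.509 and -0.0877), so results are given over 17 libraries and over the 12 of the 4 lines whose numbers match.

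Per1 and Per2 encode the PERIOD proteins that, with the cryptochromes, shut off CLOCK and BMAL1. Both genes were highest in replicate 2 of all 5 lines with 3 libraries. Per1 was at 29.0, 140 and 23.3 CPM in pMSCV replicates 1, 2 and 3, at 34.8, 83.8 and 20.4 CPM in SRF, and at 41.2, 101 and 28.3 CPM in SRF-FOXO1. In SRF-ICA1L it was at 38, 116 and 25.4 CPM, in SRF-RELA at 45.9, 151 and 23.7 CPM, and in the SRF-PDGFRB pair at 80.8 and 18.2 CPM. The order replicate 2, replicate 1, replicate 3 held in all 5 lines, the libraries of every line overlapped those of the others, and the SRF-PDGFRB pair had its higher value in replicate 1.

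Per2 had the widest range of the 10 genes, 12.9-fold. Its level was 8.39, 56.9 and 8.93 CPM in pMSCV, 11.8, 38.6 and 11.3 CPM in SRF, and 32.1, 72.6 and 36.3 CPM in SRF-FOXO1. In SRF-ICA1L it was 16.9, 71.0 and 16.4 CPM, in SRF-RELA 23.5, 108 and 20.2 CPM, and in SRF-PDGFRB 43.8 and 11.3 CPM. Replicate 2 stood above replicates 1 and 3 in all 5 lines of 3, and within a number the pMSCV or SRF library was the lowest of these lines. Across the 17 libraries Per1 and Per2 correlated at r = 0.89 on the log2 scale, a description over libraries that share replicate numbers.

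Per3, a PERIOD gene that is a strong rhythmic output but dispensable for the core loop, behaved differently in the SRF-FOXO1 line. Its level was 10.0, 37.8 and 7.57 CPM in pMSCV, 8, 10.4 and 10.3 CPM in SRF, and 5.34, 19.7 and 16.7 CPM in SRF-ICA1L. In SRF-RELA it was 8.13, 28.4 and 15.3 CPM, in SRF-PDGFRB 16.2 and 14.3 CPM, and in SRF-FOXO1 29.7, 13.2 and 39.5 CPM. Replicate 2 was the highest in 4 of the 5 lines of 3 and the lowest in SRF-FOXO1, whose replicates 1 and 3 exceeded every library of the other lines apart from pMSCV replicate 2, which lay between them.

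Cry1, the cryptochrome that acts as the late and potent repressor of CLOCK and BMAL1, varied least. It lay between 21.2 CPM (pMSCV replicate 2) and 34.4 CPM (pMSCV replicate 1), a 1.63-fold range, with line means 1.16-fold apart. Replicate 1 was the highest in 4 of the 5 lines of 3.

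Ciart (also called Chrono) encodes a further repressor of CLOCK and BMAL1. It was lowest in replicate 3 of all 5 lines of 3, at 4.35 CPM (pMSCV), 3.88 CPM (SRF), 3.57 CPM (SRF-FOXO1), 4.03 CPM (SRF-ICA1L) and 4.52 CPM (SRF-RELA). The corresponding replicates 1 were at 13.0, 11.4, 13.7, 11.4 and 15.1 CPM, and replicates 2 at 6.96, 12.3, 13.5, 8.84 and 8.03 CPM. No library numbered 3 overlapped any library numbered 1 or 2 within these lines. In SRF-PDGFRB the values were 10.3 CPM in replicate 1 and 2.22 CPM, the lowest of all 17 libraries, in replicate 2.

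**Figure D1:**
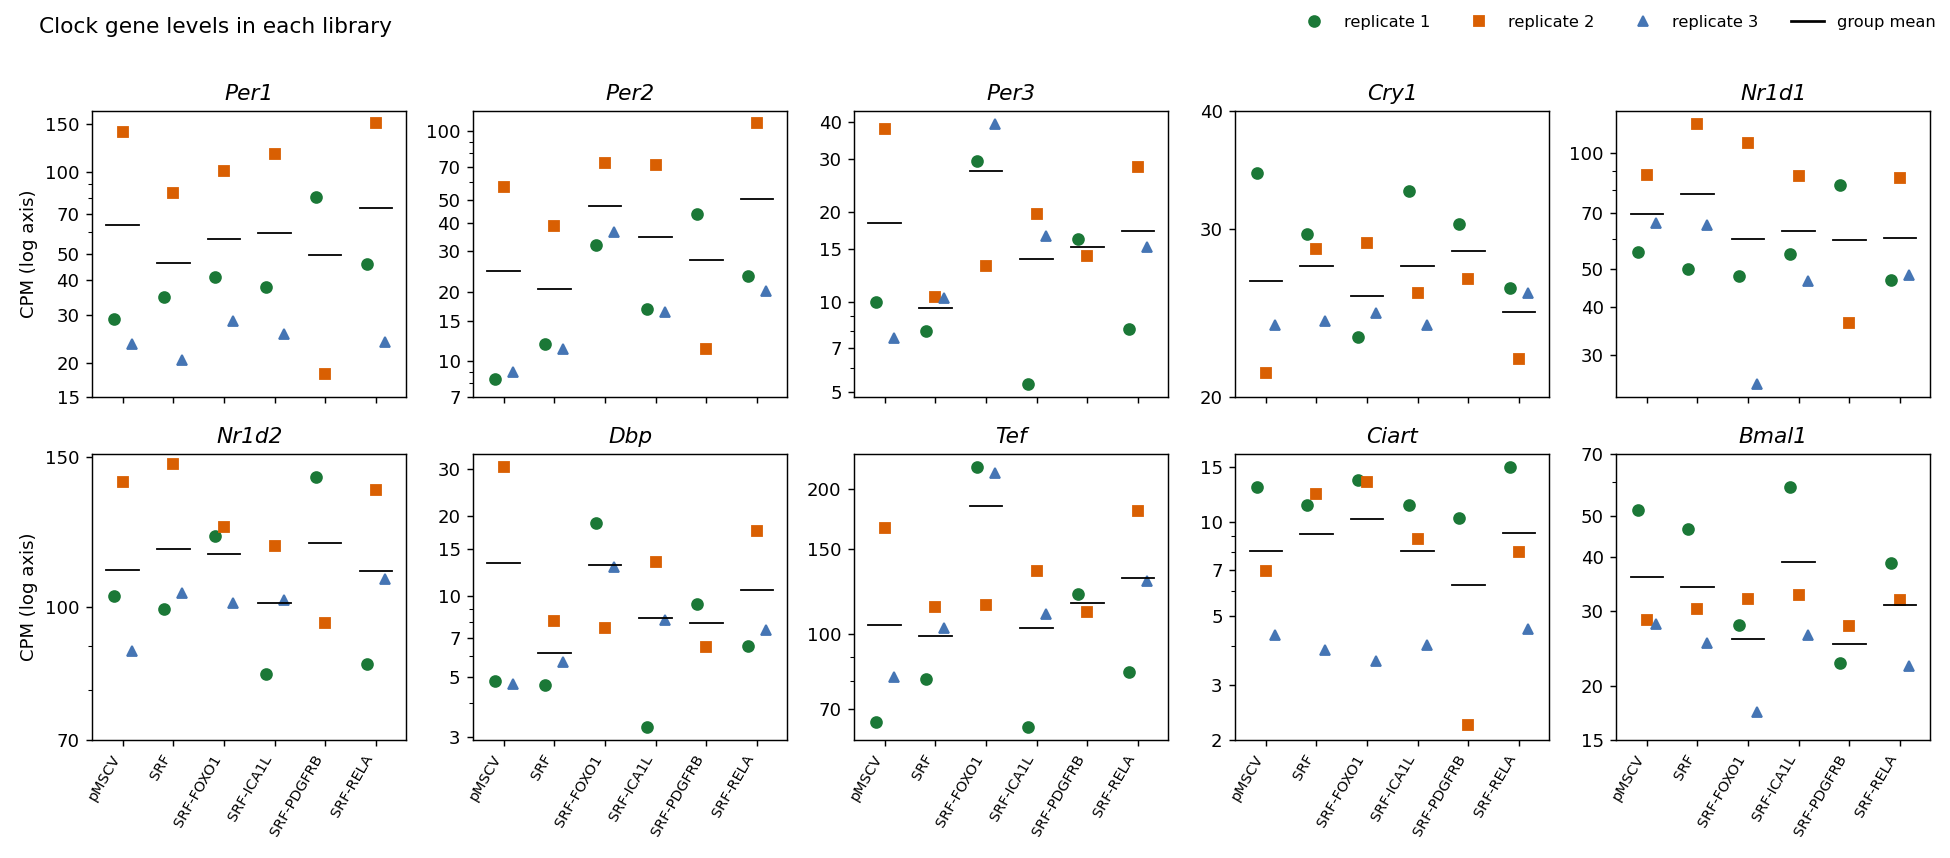
Level of each clock gene (CPM, log axis) in the 17 libraries, by line, with the symbol giving the replicate number and the bar the group mean. Replicate 2 is the highest library of all 5 lines of 3 for Per1, Per2, Nr1d1 and Nr1d2, replicate 3 is the lowest for Per1, Ciart and Bmal1, and the group means differ by 1.59-fold for Per1 and by 2.87-fold for Per3.

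Nr1d1 and Nr1d2 encode REV-ERB alpha and REV-ERB beta, haem-binding nuclear receptors that repress Bmal1. Nr1d1 was at 55.3, 87.9 and 65.8 CPM in pMSCV, 50.2, 119 and 65.0 CPM in SRF, and 47.9, 106 and 25.3 CPM in SRF-FOXO1. In SRF-ICA1L it was at 54.8, 86.9 and 46.6 CPM, in SRF-RELA at 46.9, 85.9 and 48.2 CPM, and in SRF-PDGFRB at 82.6 and 36.4 CPM. Both receptors were highest in replicate 2 of all 5 lines of 3, and the 5 libraries numbered 2 there did not overlap the other 10 in Nr1d1. Nr1d2 had a narrower range, from 83.6 CPM (SRF-ICA1L replicate 1) to 147 CPM (SRF replicate 2), or 1.76-fold. Per kilobase of exon these were the most abundant of the 10 transcripts, with medians over libraries of 19.2 CPM per kb for Nr1d2 and 18.0 for Nr1d1, against 3.80 for Bmal1 and 1.49 for Per3.

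Dbp and Tef encode proline- and acid-rich bZIP activators that drive D-box genes. Dbp was at 4.84, 30.5 and 4.72 CPM in pMSCV, 4.68, 8.09 and 5.71 CPM in SRF, and 18.8, 7.64 and 12.9 CPM in SRF-FOXO1. In SRF-ICA1L it was at 3.27, 13.4 and 8.19 CPM, in SRF-RELA at 6.51, 17.6 and 7.51 CPM, and in SRF-PDGFRB at 9.41 and 6.45 CPM. The highest Dbp value was in pMSCV replicate 2, while SRF-FOXO1 again had its lowest value in replicate 2. In Tef, too, SRF-FOXO1 was lowest in replicate 2, with 222, 115 and 215 CPM in SRF-FOXO1 against 65.8, 166 and 81.5 CPM in pMSCV and 81.0, 114 and 103 CPM in SRF. In SRF-ICA1L it lay at 64.5, 135 and 110 CPM, in SRF-RELA at 83.5, 180 and 129 CPM, and in SRF-PDGFRB at 121 and 111 CPM. Dbp, Tef and Per3 varied together, with r over 17 libraries of 0.92 between Per3 and Dbp, 0.93 between Per3 and Tef, and 0.88 between Dbp and Tef. These values describe libraries that share lines and replicate numbers, and a regulatory link between the 3 genes was not tested.

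Bmal1, the activator, had its highest values in libraries numbered 1. It was at 51.6, 28.6 and 27.9 CPM in pMSCV, 46.6, 30.3 and 25.2 CPM in SRF, and 58.4, 32.7 and 26.3 CPM in SRF-ICA1L. In SRF-RELA it was at 38.9, 31.8 and 22.3 CPM, in SRF-FOXO1 at 27.8, 32 and 17.4 CPM, and in SRF-PDGFRB at 22.6 and 27.6 CPM. Replicate 1 was the highest in 4 of the 5 lines of 3, replicate 3 the lowest in all 5, and SRF-FOXO1 and SRF-PDGFRB lacked the high replicate 1. Over 17 libraries Bmal1 correlated at r = -0.70 with Tef, -0.63 with Per3, -0.48 with Dbp, -0.33 with Nr1d2 and -0.25 with Per2. It correlated positively with Ciart (0.60), Cry1 (0.58), Nr1d1 (0.17) and Per1 (0.09).

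The spread was then divided between line and replicate number in the 15 libraries of the lines with 3, on log2 CPM. Replicate number held 94.1% of the variance of Per1 and line 2.62%. Ciart was alike in this, at 89.7% and 1.62%. For Per2 the shares were 68.8% with replicate number and 25.7% with line, so that Per2 had most of its variance outside the number in the line term. Nr1d1 (68.1% and 11.2%), Nr1d2 (66.7% and 8.87%) and Bmal1 (65.8% and 19.4%) also had more with the number. Dbp (31.1% and 16.9%) and Cry1 (29.6% and 8.96%) lay near the median gene for the number. Per3 (20.5% with the number, 27.9% with line) and Tef (21% and 36.5%) were the 2 genes in which line held more. The median over all genes was 30.4% for replicate number and 28.5% for line.

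**Figure D2:**
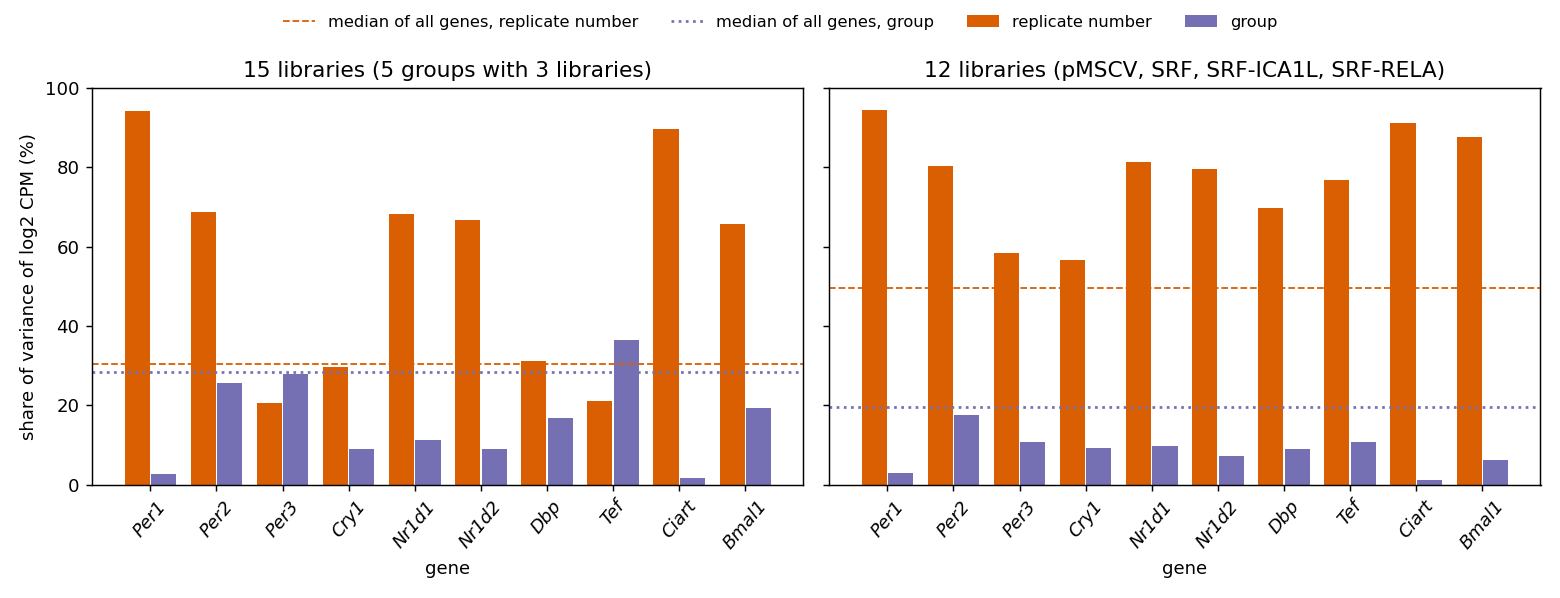
Share of the variance of log2 CPM (%) held by replicate number and by line for each clock gene, in the 15 libraries of the 5 lines of 3 and in the 12 libraries of the 4 lines whose numbers match, with bars from 0 and horizontal lines at the medians over all genes. In the 15 libraries the number held more than line in 8 of 10 genes, and in the 12 libraries in 10 of 10. The share of all genes in which it did so was not computed. The 12 were picked because same-numbered libraries deviated together, so a larger share for the number was selected for there.

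In the 12 libraries of those 4 lines the shares of replicate number were 94.4% for Per1, 91.2% for Ciart, 87.6% for Bmal1 and 81.2% for Nr1d1. The lowest among the members were 58.4% for Per3 and 56.5% for Cry1, and the largest share of line was 17.5%, for Per2. All 10 members lay above the median gene there in the share of the number, and that gene had 49.6% with the number and 19.5% with line. These 12 libraries were picked because same-numbered libraries deviated together, so a larger share for the number was selected for and these shares are a description. Per3 and Tef, in which line held more over 15 libraries, therefore did so only with the SRF-FOXO1 libraries included.

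Replicate number was tested across all genes in a model with line and number (quasi-likelihood F-test in edgeR, p adjusted by Benjamini-Hochberg, called at an adjusted p under 0.05). Over the 17 libraries it called 4 of the 10 members, against 8.17% of all genes. Ciart had an adjusted p of 0.0118, Bmal1 of 0.0263, Per1 of 0.0305 and Per2 of 0.0449 in that edgeR test. Ciart fell in replicate 3 against replicate 1 by 1.80 on the log2 scale (SE 0.29) and against replicate 2 by 1.13 (SE 0.28), and was lower in replicate 3 in 5 of 5 lines. Bmal1 fell by 0.83 in replicate 3 against replicate 1 (SE 0.16), Per1 fell by 2.05 against replicate 2 (SE 0.44) and Per2 fell by 1.79 against replicate 2 (SE 0.48). The contrasts called 2 members for replicate 3 against 1 (8.68% of all genes), 3 for replicate 3 against 2 (5.73%) and 0 for replicate 2 against 1 (0.339%). In that last contrast 4 members had an unadjusted p under 0.05 in edgeR, as did 2856 of all 15062 genes, and DESeq2 called 1 member, Per2, and 5.18% of all genes.

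Single libraries decided several of these calls. Leaving out each library in turn left Ciart called in 17 of 17 fits, Bmal1 in 8, Per1 in 6 and Per2 in 3, and the number of members called for replicate number ran from 1 to 6. It was 1 or 2 without any 1 library of pMSCV, SRF, SRF-ICA1L or SRF-RELA, or without SRF-FOXO1 replicate 3. Without SRF-PDGFRB replicate 1, or without SRF-PDGFRB replicate 2, it was 6, with Nr1d1 and Nr1d2 added. The contrast of replicate 2 with replicate 1 called 4 members when 1 or the other of those 2 libraries was left out (Per1, Per2, Nr1d1 and Nr1d2) and 1, Tef, without SRF-FOXO1 replicate 2. Replicate 3 against replicate 2 called 0 members without any 1 of the replicates 2 or 3 of pMSCV, SRF, SRF-ICA1L or SRF-RELA, and 5 or 6 without an SRF-PDGFRB library. Over the 15 libraries of the other 5 lines, replicate number called 6 members (Per1, Per2, Nr1d1, Nr1d2, Ciart and Bmal1), against 29.0% of all genes. Its contrasts called 4 for replicate 2 against 1 (9.15%), 3 for replicate 3 against 1 (11.9%) and 5 for replicate 3 against 2 (26.5%).

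The 12 libraries whose numbers match were picked because same-numbered libraries deviated together across genes, so an effect of the number was selected for there and the counts that follow are a description. Among them, replicate number called 9 of the 10 members, all but Cry1 (adjusted p = 0.0616, edgeR), and 52.0% of all genes. Replicate 2 stood above replicate 1 for 7 of them. Per2 rose by 2.20 on the log2 scale (SE 0.16), Dbp by 1.77 (SE 0.34), Per1 by 1.72 (SE 0.15) and Per3 by 1.53 (SE 0.36). Tef rose by 1.01 (SE 0.15), Nr1d1 by 0.86 (SE 0.12) and Nr1d2 by 0.54 (SE 0.10), while Bmal1 fell by 0.65 (SE 0.11). These 8 calls compare with 35.7% of all genes, and their adjusted p-values in edgeR ran from 0.000314 to 0.0108.

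Replicate 3 differed from replicate 1 in 4 members, against 18.2% of all genes. Ciart fell by 1.58 (SE 0.19), Bmal1 by 0.92 (SE 0.11) and Per1 by 0.65 (SE 0.15), and Tef rose by 0.53 (SE 0.15). Against replicate 2 it differed in 7 members, all lower, where 42.2% of all genes were called in either direction and 20.9% were called lower. Per1 fell by 2.37 (SE 0.15), Per2 by 2.25 (SE 0.16), Dbp by 1.29 (SE 0.34) and Ciart by 1.08 (SE 0.19). Nr1d1, Tef and Nr1d2 fell by 0.74, 0.48 and 0.41. Leaving out each of the 12 libraries in turn left 8 to 10 members called for replicate number, with 36.9% to 56.1% of all genes called.

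**Figure D3:**
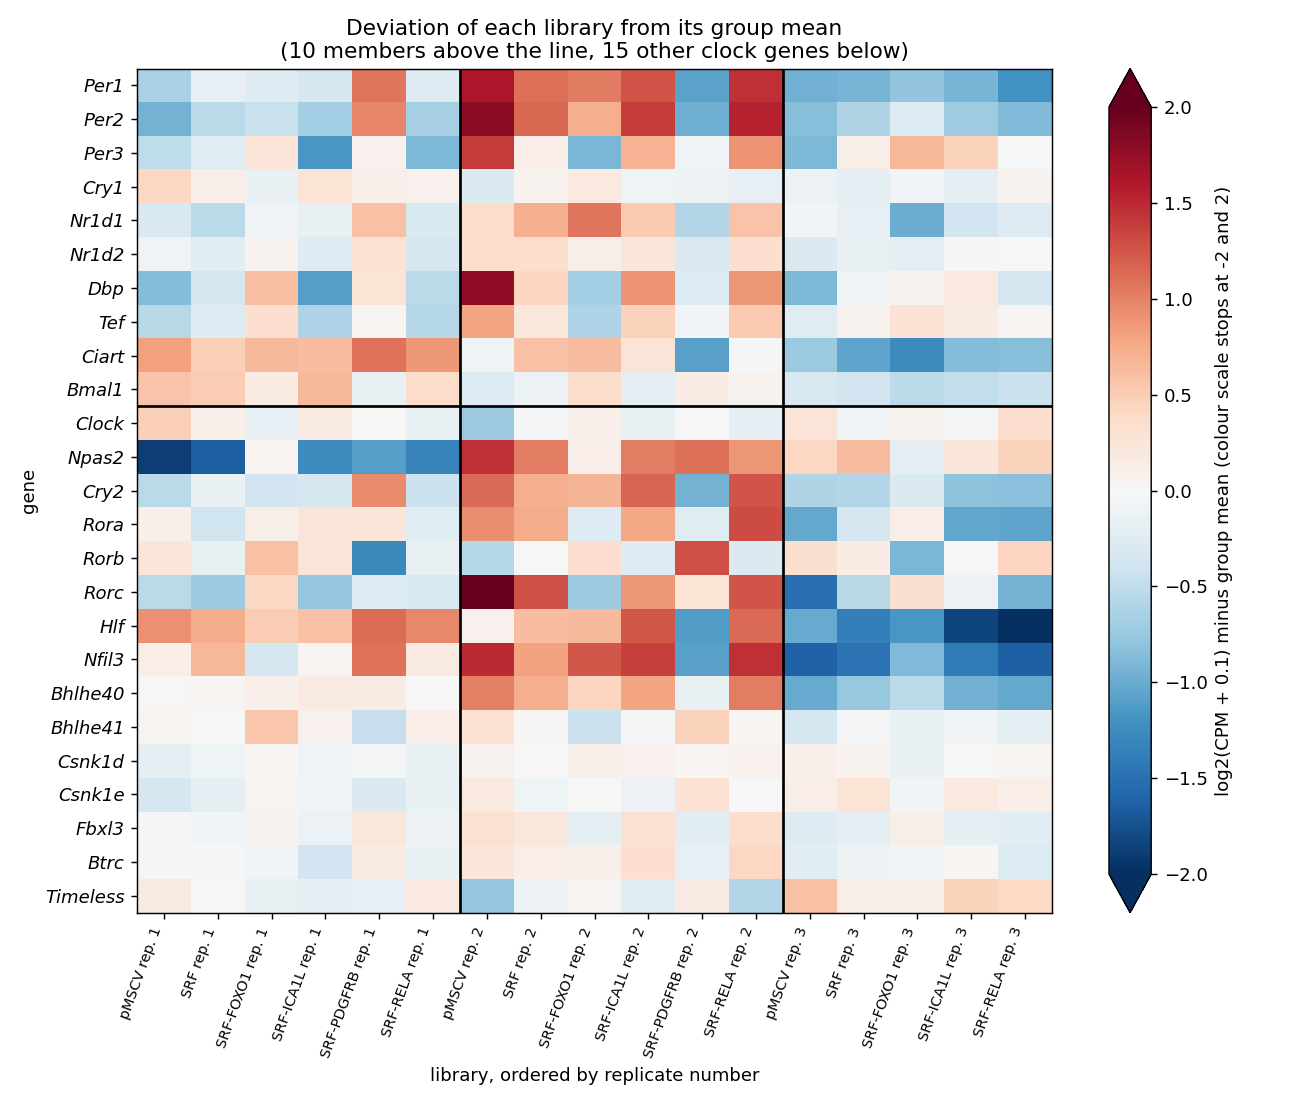
Deviation of each library from the mean of its line, log2(CPM + 0.1), for the 10 clock genes above the line and 15 other clock genes below it, with libraries ordered by replicate number. Per1, Per2 and Nr1d1 are red across the libraries numbered 2 except SRF-PDGFRB, Ciart is blue across those numbered 3, and SRF-PDGFRB replicate 1 carries the red of the other lines' replicate 2 for Per1 and Per2.

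The rest of the clock was examined in a list of 16 further genes, of which 15 were in the table (Fbxl21 was not). Replicate number called 4 of the 15 over 17 libraries, Npas2, Hlf, Nfil3 and Bhlhe40, against 8.17% of all genes. Npas2, the partner that can replace CLOCK, was at 0.369, 4.67 and 2.20 CPM in pMSCV and rose in replicate 2 against replicate 1 by 2.38 (SE 0.39, adjusted p = 0.0388, edgeR). Its level was low, at 0.273 to 0.459 CPM in the libraries numbered 1. In SRF-FOXO1 it stayed at 0.436, 0.469 and 0.357 CPM in replicates 1, 2 and 3. Nfil3, the repressor at D-boxes, was at 40.6, 105 and 12 CPM in pMSCV and fell in replicate 3 against replicate 2 by 2.48 (SE 0.44, adjusted p = 0.0194, edgeR). Bhlhe40 (DEC1), an E-box repressor, fell in the same contrast by 1.58 (SE 0.18) and Hlf, a relative of Dbp and Tef, by 2.19 (SE 0.41). Over the 12 libraries 11 of the 15 were called, against 52.0% of all genes. Cry2, which had 32 CPM in pMSCV replicate 2 and 10.0 and 9.53 CPM in replicates 1 and 3, rose there in replicate 2 against replicate 1 by 1.45 (SE 0.15, adjusted p = 0.00102, edgeR). Clock had a log2 difference of -0.42 (SE 0.18, adjusted p = 0.102, edgeR) in that contrast, and the kinase gene Csnk1d one of 0.19 (SE 0.08, adjusted p = 0.0913, edgeR).

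Serum immediate-early genes also differed by replicate number. Their 8 members summed to 1560, 6930 and 320 CPM in pMSCV replicates 1, 2 and 3, 2900, 3980 and 352 CPM in SRF, and 4880, 9630 and 534 CPM in SRF-RELA. The sums were 566, 7690 and 603 CPM in SRF-FOXO1, 2930, 6800 and 558 CPM in SRF-ICA1L, and 6370 and 429 CPM in SRF-PDGFRB. Replicate 2 was again the highest in all 5 lines of 3, and in SRF-PDGFRB replicate 1. Fos stood at 1 to 4.64 CPM in the libraries numbered 3 and at 221 to 569 CPM in those numbered 2 outside SRF-PDGFRB. In those numbered 1 it ran from 5.14 CPM (SRF-FOXO1) to 600 CPM (SRF-RELA) outside SRF-PDGFRB. Replicate 1 exceeded replicate 2 for Fos in SRF, SRF-ICA1L and SRF-RELA. For replicate 2 against replicate 1 over 17 libraries, adjusted p-values of the 8 genes ran from 0.195 (Egr2) to 0.949 (Fos) in edgeR. Against 8.17% of all genes, replicate number called 7 of these 8 genes over 17 libraries, and 3 of 5 glucocorticoid-responsive genes in the table (Klf9, Sgk1 and Per1, the last also a member). Fkbp5 and Tsc22d3 of that list were not called (adjusted p = 0.0666 and 0.858, edgeR). From replicate 2 to replicate 3 the list went both ways: Klf9 fell by 1.86 and Sgk1 by 2.07, whereas Fkbp5 rose by 0.75 (SE 0.19, adjusted p = 0.0447, edgeR). Of 6 cell cycle genes 0 were called over 17 libraries. An unadjusted p under 0.05 in edgeR was reached there by 3 of the 6 and by 4940 of all 15062 genes. Over the 12 libraries 6 of the 6 were called, against 52.0% of all genes. The summed level of the cell cycle genes was lowest at 785 CPM in pMSCV replicate 2, the library with the highest Dbp. The part of the serum and cell cycle genes in the clock results was not tested, and in a bulk culture a change in the share of cells and a change in RNA per cell cannot be told apart.

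The lines themselves were compared in a model with no replicate term over the 17 libraries. The test across the 6 lines called 0 of the 10 members, with adjusted p-values from 0.831 to 1 in edgeR, against 0.0797% of all genes, and 0 members had an unadjusted p under 0.05. DESeq2 also called 0 members, and 4.22% of all genes. Each line was then set against pMSCV and each fusion against SRF, 9 comparisons that share those libraries. Members called numbered 0 in every one, by edgeR and by DESeq2. The share of all genes called by edgeR was 0.00664% for SRF, 0.710% for SRF-FOXO1, 0% for SRF-ICA1L, 0.0199% for SRF-PDGFRB and 0% for SRF-RELA against pMSCV. For the fusions against SRF, in the order SRF-RELA, SRF-PDGFRB, SRF-ICA1L and SRF-FOXO1, it was 0.00664%, 0.0531%, 0% and 0.00664%. DESeq2 called more of all genes, 9.07% for SRF-FOXO1 against pMSCV, 4.30% for SRF-FOXO1 against SRF and 0.0133% to 0.770% in the other 7 comparisons.

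Over the 10 members the median log2 difference lay between -0.25 (SRF-PDGFRB against pMSCV) and 0.23 (SRF-FOXO1 against SRF), where the medians of all genes were 0.01 in both. Only 2 members had an unadjusted p under 0.05, both in SRF-FOXO1 against SRF, where 2895 of all 15062 genes did, a share like that of the members: Per3, with a log2 fold change of 1.52 (SE 0.64, adjusted p = 0.231, edgeR), and Tef, with 0.88 (SE 0.38, adjusted p = 0.238, edgeR). In the other 8 comparisons 0 members did. The standard errors set the precision: 0.90 for Per1 and 0.91 for Per2 in SRF against pMSCV, against 0.49 for Nr1d1 and 0.36 for Bmal1. Differences of the size of these errors could not be called in this model with no replicate term. Larger ones also went uncalled, such as the 1.52 of Per3 with its SE of 0.64.

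**Figure D4:**
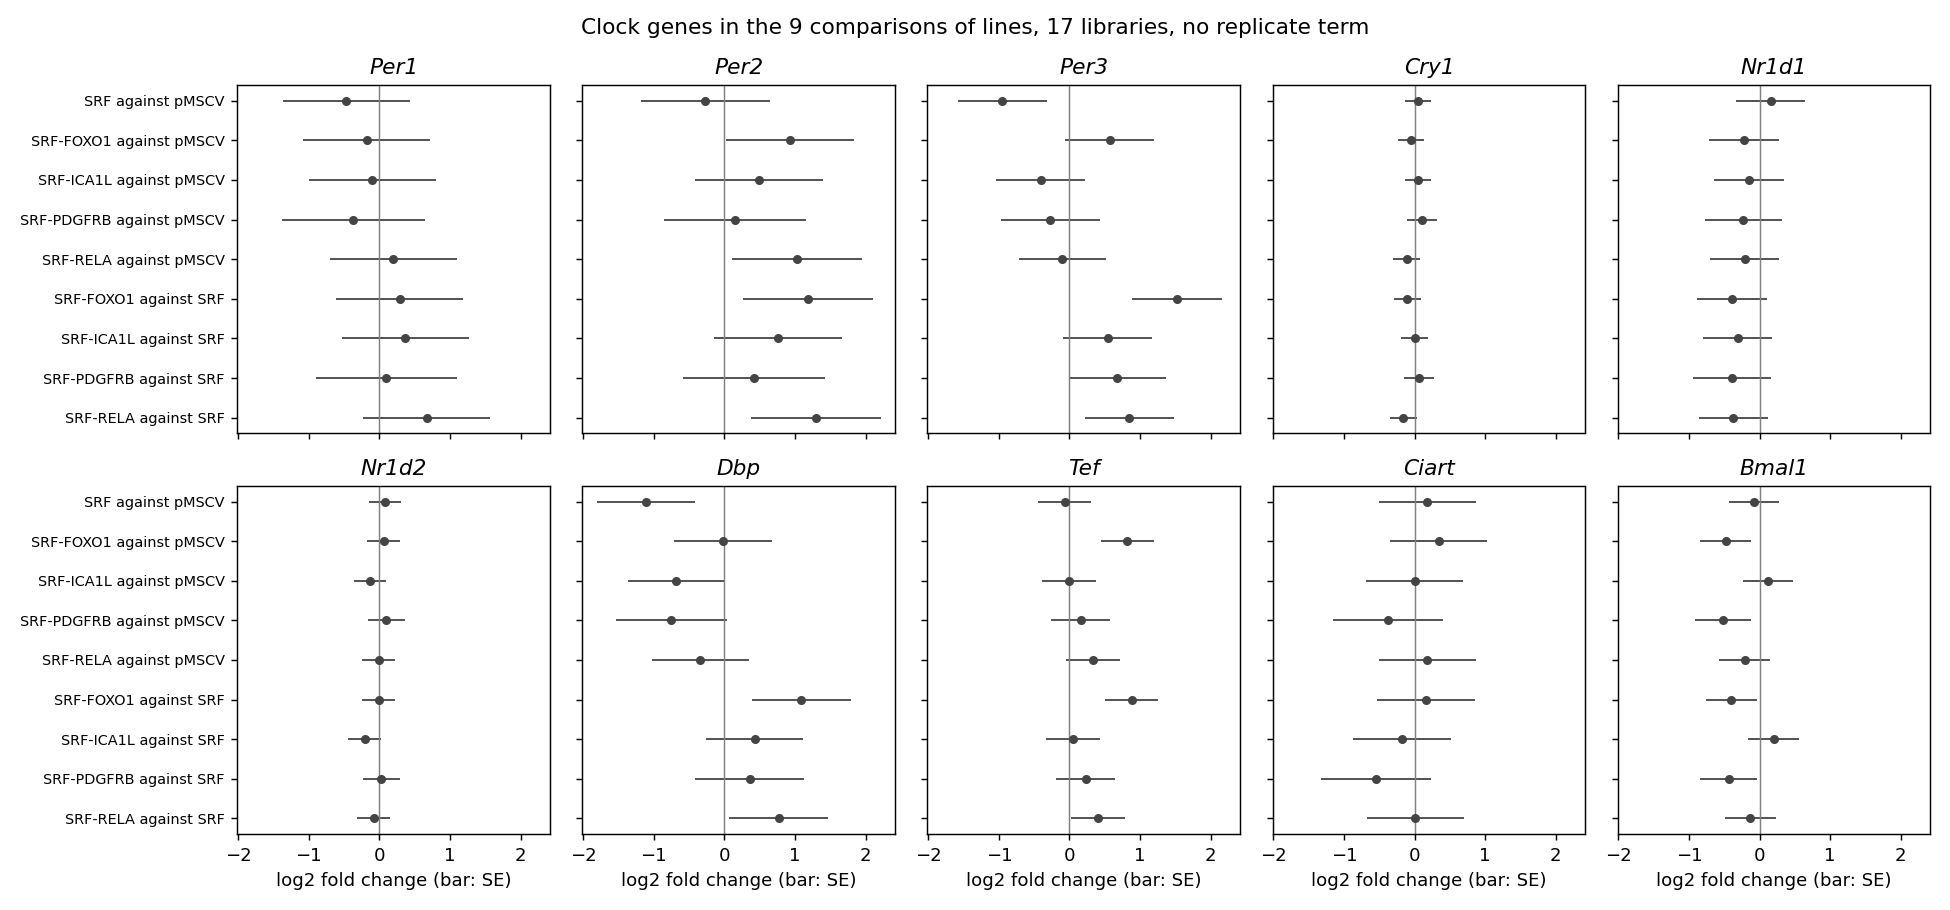
Log2 fold change of each clock gene in the 9 comparisons of lines, from the model of 17 libraries with no replicate term, with bars of 1 standard error. Per1 and Per2 have the widest bars, Cry1 and Nr1d2 the narrowest, and no estimate passed an adjusted p of 0.05.

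Per2 alone among the members was called once same-numbered libraries were compared, a count near the share of all genes in SRF-RELA against pMSCV. With the replicate number as a block over the 12 libraries, Per2 stood 1.18 log2 units higher in SRF-RELA than in pMSCV (SE 0.18, adjusted p = 0.00585, edgeR), 1 of 10 members called against 6.48% of all genes. The block rests on a pairing of numbers that was taken from these same data and not from the labels. The SRF-RELA library stood above the pMSCV library of its number in 3 of 3 pairs, by 2.79-fold, 1.90-fold and 2.26-fold. Leaving out each of these 6 libraries in turn kept the call, with adjusted p-values from 0.0027 to 0.0384 (edgeR), and Tef joined it without pMSCV replicate 2. In the same comparison 3 of the 8 serum immediate-early genes were called, all higher in SRF-RELA, Junb by 1.07 (SE 0.21), Egr1 by 1.24 (SE 0.22) and Arc by 1.17 (SE 0.29), and the median of the 8 was 0.98 where that of all genes was 0.01. Of 6 muscle differentiation genes 3 were called, Myog, Myh3 and Mymk, with log2 fold changes of -3.04, -3.11 and -2.53 and a median over the 6 of -2.12. SRF and SRF-ICA1L shared this drop against pMSCV: the median of the 6 was -2.08 in SRF, with 0 called (0.0137% of all genes). In SRF-ICA1L it was -2.50, with Myog and Myh3 called (2.99% of all genes). In SRF-PDGFRB, outside the 12 libraries, the 6 genes summed to 9.23 and 453 CPM, against 112 to 237 CPM in pMSCV. The part of these genes in the Per2 difference was not tested. Against SRF the difference was 1.11 (SE 0.18, adjusted p = 0.0327, edgeR, against 0.656% of all genes) and higher in 3 of 3 pairs, but leaving out any 1 of the 6 libraries ended that call, with adjusted p-values from 0.0596 to 0.167. The test across the 4 lines called Per2 alone among the members (adjusted p = 0.0127, edgeR, against 3.50% of all genes).

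The other lines were examined for Per2 in the same way. SRF-ICA1L had a blocked log2 difference from pMSCV of 0.71 (SE 0.18, adjusted p = 0.0649, edgeR), with 3 of 3 pairs higher, against 2.99% of all genes called. SRF had one of 0.07 (SE 0.18, adjusted p = 0.874, edgeR, against 0.0137% of all genes), and SRF-ICA1L against SRF one of 0.64 (SE 0.18, adjusted p = 0.279, edgeR, against 0.0956%). The numbers of SRF-FOXO1 match those of SRF, and in the 6 libraries of that pair Per2 was higher in SRF-FOXO1 by 1.36 (SE 0.19, adjusted p = 0.0471, edgeR, against 1.57% of all genes), with ratios of 2.72, 1.88 and 3.21 in the 3 pairs. This model of 6 libraries was added once the data were known, and the other 9 members were not called in it. In a block over the 15 libraries, also added later, Per2 was higher in SRF-FOXO1 than in pMSCV by 1.44 (SE 0.27, adjusted p = 0.00631, edgeR, against 16.5% of all genes), although the numbers of those lines did not match. That fit also called Per2 across the 5 lines (5.08% of all genes), in SRF-RELA against pMSCV (2.28%) and in SRF-FOXO1 against SRF (11.1%), and 0 members in SRF against pMSCV (0.00669%), SRF-ICA1L against pMSCV (0.455%), SRF-ICA1L against SRF (0.00669%) and SRF-RELA against SRF (0.0134%). With the block over all 17 libraries 0 members were called across the lines (0.365% of all genes) or in any of the 9 comparisons. Of all genes that fit called 0.00664% for SRF, 6.78% for SRF-FOXO1, 0% for SRF-ICA1L, 0.332% for SRF-PDGFRB and 0% for SRF-RELA against pMSCV. For the fusions against SRF it called at most 0.212%, in SRF-PDGFRB, and 0.00664% in each of the others. At an unadjusted p under 0.05 in edgeR it held 3 members for SRF-FOXO1 against pMSCV (4158 of all 15062 genes), 3 for SRF-FOXO1 against SRF (4079), 1 for SRF-PDGFRB against pMSCV (1900), 2 for SRF-PDGFRB against SRF (1401) and 0 elsewhere.

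Among the 15 other clock genes Rorb alone was called between lines in the 12 libraries. Of all genes 3.50% were called across the lines, 6.48% for SRF-RELA against pMSCV and 0.656% for SRF-RELA against SRF. In SRF-RELA against pMSCV 1 of 15 was near the share of all genes. Rorb, a ROR receptor gene, was at 11, 9.95 and 16.5 CPM in SRF-RELA and at 38.2, 21.6 and 40.1 CPM in pMSCV. It was lower in SRF-RELA than in pMSCV with a log2 fold change of -1.39 (SE 0.20, adjusted p = 0.0043, edgeR) and than in SRF with -1.13 (SE 0.20, adjusted p = 0.0372, edgeR). With no replicate term over 17 libraries, Rorb was again called, lower in SRF-FOXO1 (7.93, 6.61 and 2.72 CPM) than in pMSCV with a log2 fold change of -2.53 (SE 0.53, adjusted p = 0.0483, edgeR). That was 1 of the 15 against 0.710% of all genes. The test across the lines and the other 8 comparisons called 0 of the 15 in that model, and across the lines 1 had an unadjusted p under 0.05 in edgeR. The difference between the behaviour of Per2 and that of the other members was not tested.

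Positions follow GRCm38 with the GENCODE M21 annotation, and all 10 genes are protein coding. Per1 (ENSMUSG00000020893) spans chr11:69095217-69109960, Per2 (ENSMUSG00000055866) chr1:91415982-91459324 and Per3 (ENSMUSG00000028957) chr4:151003652-151044665. Cry1 (ENSMUSG00000020038) spans chr10:85131700-85185064, Nr1d1 (ENSMUSG00000020889) chr11:98767932-98775333 and Nr1d2 (ENSMUSG00000021775) chr14:18204054-18239127. Dbp (ENSMUSG00000059824) lies at chr7:45705088-45710203 and Tef (ENSMUSG00000022389) at chr15:81802421-81826863. Ciart (ENSMUSG00000038550) spans chr3:95878503-95882251 and Bmal1 (ENSMUSG00000055116) chr7:113207465-113314126. Exons of 4 members overlap a gene on the opposite strand: Nr1d1 overlaps Thra over 263 bp (8.55% of its exon length), Dbp overlaps Sphk2 over 539 bp (18%), Tef overlaps Gm17597 over 193 bp and Bmal1 overlaps Gm45355 over 33 bp. Whether counting used the strand is not given in the sources used here, so reads in those stretches cannot be assigned with certainty. Counts behind the values ran from 50 (Ciart) to 5084 (Tef) in a library.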

How the data were processed

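The deposited values are raw read counts per gene, which the authors made from stranded libraries of polyadenylated RNA per the labels. The submitters' processing notes name FastQC 0.11.8, Trimmomatic 0.39, HISAT2 2.12.1, featureCounts and Subread 2.0.0, and the build GRCm38, and the strand setting of the counting is not given in the sources used here. The table held 15062 genes in 17 libraries, and every gene reached 10 counts in at least 3 of them. Rows with no symbol (1531, with 0.555% to 1.13% of a library's counts) carry gene identifiers and stayed in the tests. Library totals of 20901442 to 23543734 counts made counting error small beside the spread between libraries. No library was a duplicate of another.

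Groups and replicate numbers came from the titles. Library sizes were corrected with TMM factors, and edgeR 4.0.16 (limma 3.58.1, R 4.3.3) gave a quasi-likelihood F-test with robust dispersions, adjusted by Benjamini-Hochberg over all genes. Line was fitted over 17 libraries with no replicate term, and replicate number beside line. CPM used TMM factors, and log2 CPM had a prior count of 2. Standard errors were the absolute log2 fold change over the root of F. The share of variance came from a division of sums of squares. Alternatives were DESeq2 1.42.0, its size factors in edgeR, a mean of at least 1 CPM, prior count 0.5, the replicate block, and leaving out each library. Scripts were tested on simulated data.

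Replicate numbers were taken to pair pMSCV, SRF, SRF-ICA1L and SRF-RELA, since same-numbered libraries deviated together (r from 0.392 to 0.789 across genes, 6 pairs of lines). The pairing comes from the data, not from the labels. Named were all members, called genes of the gene lists (at most 6 per list and test), further clock genes for their role, and the genes most like Dbp and Bmal1 in pattern. The members and lists were chosen with earlier results of these data known. Promoter sequences are from RefSeq (GRCm38.p6) and positions from GENCODE M21.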

Additional observations from a re-analysis of the deposited data

How the results depend on the processing

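The comparisons of lines called 0 clock genes when any 1 library was left out, under DESeq2, under its size factors, with the stricter filter and with the replicate block over all 17 libraries. With the replicate block in the 12 paired libraries the count was 1 (Per2) across the lines, for SRF-RELA against pMSCV and for SRF-RELA against SRF. Blocks added after seeing the data also gave 1, again Per2: over 15 libraries across the lines and for SRF-FOXO1 against pMSCV, SRF-RELA against pMSCV and SRF-FOXO1 against SRF, and over the 6 libraries of SRF and SRF-FOXO1. The block changed no other call of a member between lines.

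Replicate number called 4 members over 17 libraries, 9 over the 12, and 1 to 6 when each library was left out. Replicate 2 against 1 called 0, with 1 by DESeq2, 8 over the 12 libraries, 4 over the 15, and 0 to 4 leaving 1 library out. Replicate 3 against 1 called 2, with 4 over the 12 libraries and 2 to 3 leaving 1 out. Replicate 3 against 2 called 3, with 5 by DESeq2, 7 over the 12 libraries, 5 over the 15, and 0 to 6 leaving 1 out. The 12 libraries leave out SRF-FOXO1 and SRF-PDGFRB, whose numbers did not match those of all other lines, and the 15 leave out only SRF-PDGFRB. The cause of the shifts was not tested. The sign was followed only for members called over 17 libraries, and none of those changed direction. Among members not called a sign did change. In replicate 3 against replicate 2 the highest log2 difference was -0.05 over 17 libraries and 0.02 over the 12. With 2 or 3 libraries a line, the spread between libraries and not sequencing depth limited what could be detected.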

Other observations

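Some clock output genes outside the loop differed by replicate number. Of 9 such genes in the table (Tcap was not in it), 4 were called over the 17 libraries (edgeR quasi-likelihood F-test, Benjamini-Hochberg), against 8.17% of all genes. Wee1, Klf15, Myod1, Ppargc1b and Tspan4 were not called, with adjusted p-values from 0.13 to 0.37. Usp2, a deubiquitinase gene with strong circadian rhythm in many tissues, was at 4.61, 19.4 and 1.22 CPM in pMSCV replicates 1, 2 and 3 and fell in replicate 3 against replicate 2 by 2.69 log2 units (SE 0.44, adjusted p = 0.0158, edgeR). Pdk4, which restrains glucose oxidation in muscle, moved the other way: it was at 7.10, 25.4 and 67.2 CPM in pMSCV and rose in replicate 3 against replicate 2 by 1.45 (SE 0.28, adjusted p = 0.0238, edgeR). Nampt, which makes the NAD precursor, fell in replicate 3 against replicate 1 by 0.71 (SE 0.12), and Cdkn1a, the inhibitor p21, fell in replicate 3 against replicate 2 by 1.02 (SE 0.22). Wee1, a kinase gene that delays entry into mitosis, had a log2 difference of 0.21 there (SE 0.15, adjusted p = 0.364, edgeR).

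Over the 17 libraries the genes most like Dbp in log2 CPM, among 11940 with a mean of at least 1 CPM, were Kiz (r = 0.963), Thra (0.962), Cd99l2 (0.951), Dync2li1 (0.948) and Ech1 (0.945), and the most opposite were Atp2a2 (-0.961), Eif2s3x (-0.958) and Rbm19 (-0.949). Thra is the gene whose exons overlap those of Nr1d1 on the opposite strand. For Bmal1 the most alike were Ilrun (0.873), Spns1 (0.858), Gm3222 (0.853), Yrdc (0.851) and Etf1 (0.839), and the most opposite were Fam161b (-0.918), Optn (-0.910) and Rnf135 (-0.893). These values describe libraries that share lines and replicate numbers.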
